A study of Mus musculus with 6 samples.

Results

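The genes described here are 40 components of the machinery that copies DNA and makes its building blocks, measured in CD8 T cells sorted from the pancreas of 2 kinds of mice. They were taken by symbol, from licensing factors to deoxynucleotide enzymes, and 1 probe stood for each gene, the one with the highest mean over all 6 arrays. All 40 had a probe with that single gene symbol, out of 19929 genes so represented. AI4 mice carry a transgenic T cell receptor, called AI4, that recognises a beta cell antigen, and the labels state that they developed type 1 diabetes. Rip-B7xAI4 mice carry the same receptor together with Rip-B7x, in which the rat insulin promoter drives B7x (Vtcn1) in beta cells. B7x is a B7 family protein that inhibits T cells, and these mice resisted the disease. Both kinds were on a C57BL/6.H2g7/g7 background. AI4 T cells were sorted with an anti-CD8 antibody and the MimA2/H-2Db tetramer from pooled pancreata, and total RNA was hybridised to 3 single-colour arrays per group. The sources used here do not give the number of mice in a pool, nor their age or sex. The replicates are labelled biological, but whether each came from a separate pool is not stated, so p-values measure the spread between these arrays. The transgene and the disease outcome go together in the groups and cannot be told apart.

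Before a cell divides, an origin recognition complex with Cdc6 and Cdt1 loads the Mcm2 to Mcm7 ring on DNA. Cdc45 and the GINS complex turn that ring into an active helicase. Polymerase alpha with primase then lays down primers, polymerases delta and epsilon extend them on the PCNA clamp, and Fen1 and Lig1 join the lagging-strand fragments. Resting T cells hold little of this machinery. Antigen stimulation induces most of these genes together, largely through E2F transcription factors, as T cells leave quiescence and divide quickly.

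The promoter windows below show where letters of the E2F type lie in genes of the list. RefSeq sequences of assembly GRCm38.p6 were available for 33 of the 40 genes, as windows of 300 bases that run from 250 before to 50 after a transcription start. The first 4 belong to the members with the smallest p in the comparison below that have such a window, and the last 3 to the other members with the most matches (Mcm5 and Mcm7 tie with Cdt1 and Mcm3 at 2 and are not printed). Capitals mark matches to TTTCCCG and to the related letters TTTCGCG, or to the form TTTGCCG and lastly to TTTGGCG, on either strand, and adjoining capitals in Mcm6 are 2 overlapping matches. Where a gene has several starts, the first one listed was used.
Rfc4, chr16:23127681-23127980, minus strand: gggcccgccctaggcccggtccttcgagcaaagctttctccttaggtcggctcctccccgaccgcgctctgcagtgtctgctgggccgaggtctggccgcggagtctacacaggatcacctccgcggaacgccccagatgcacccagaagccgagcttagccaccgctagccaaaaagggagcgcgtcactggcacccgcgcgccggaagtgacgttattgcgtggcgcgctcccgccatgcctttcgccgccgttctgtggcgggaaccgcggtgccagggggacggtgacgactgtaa
Lig1, chr7:13276925-13277224, plus strand: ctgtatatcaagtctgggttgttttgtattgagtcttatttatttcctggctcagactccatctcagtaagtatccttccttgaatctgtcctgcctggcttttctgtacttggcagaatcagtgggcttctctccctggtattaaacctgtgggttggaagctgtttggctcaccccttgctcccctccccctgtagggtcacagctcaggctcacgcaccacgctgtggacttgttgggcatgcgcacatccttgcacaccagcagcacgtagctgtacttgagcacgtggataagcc
Dut, chr2:125247265-125247564, plus strand: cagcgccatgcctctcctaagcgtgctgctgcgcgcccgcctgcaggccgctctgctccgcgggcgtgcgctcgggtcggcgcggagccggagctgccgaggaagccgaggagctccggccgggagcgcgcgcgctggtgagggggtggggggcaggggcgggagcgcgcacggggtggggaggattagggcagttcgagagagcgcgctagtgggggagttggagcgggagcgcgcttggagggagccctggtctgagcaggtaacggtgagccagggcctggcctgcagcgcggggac
Rfc3, chr5:151651159-151651458, minus strand: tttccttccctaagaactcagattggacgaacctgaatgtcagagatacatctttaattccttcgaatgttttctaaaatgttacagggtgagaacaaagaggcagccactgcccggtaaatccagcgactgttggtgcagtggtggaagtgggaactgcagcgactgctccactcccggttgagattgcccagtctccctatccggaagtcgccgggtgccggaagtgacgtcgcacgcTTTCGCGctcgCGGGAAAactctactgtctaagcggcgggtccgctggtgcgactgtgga
Mcm6, chr1:128359656-128359955, minus strand: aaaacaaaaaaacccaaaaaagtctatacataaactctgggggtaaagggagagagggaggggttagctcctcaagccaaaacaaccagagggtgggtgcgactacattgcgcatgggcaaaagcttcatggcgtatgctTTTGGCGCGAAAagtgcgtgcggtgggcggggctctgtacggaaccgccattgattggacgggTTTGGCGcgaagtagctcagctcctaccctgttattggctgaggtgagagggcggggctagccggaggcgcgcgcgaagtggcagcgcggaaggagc
Cdt1, chr8:122567765-122568064, plus strand: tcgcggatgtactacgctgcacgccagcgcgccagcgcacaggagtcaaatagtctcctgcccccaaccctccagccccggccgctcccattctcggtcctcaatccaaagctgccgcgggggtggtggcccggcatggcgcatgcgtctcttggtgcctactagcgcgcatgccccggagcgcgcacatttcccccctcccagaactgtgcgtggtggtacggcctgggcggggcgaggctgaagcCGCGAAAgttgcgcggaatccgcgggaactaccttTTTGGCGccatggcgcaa
Mcm3, chr1:20820263-20820562, minus strand: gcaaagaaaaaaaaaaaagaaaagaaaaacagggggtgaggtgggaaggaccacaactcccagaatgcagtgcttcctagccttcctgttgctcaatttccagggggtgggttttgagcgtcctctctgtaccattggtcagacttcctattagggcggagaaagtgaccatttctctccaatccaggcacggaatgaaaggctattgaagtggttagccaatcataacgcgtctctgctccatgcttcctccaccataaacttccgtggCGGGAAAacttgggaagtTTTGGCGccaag

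Of the 33 windows, 15 (45.5%) held at least 1 E2F-type match. The share was 10.1% over 11044 array genes that were tested and have a window, and 6.70% over all 32851 windows of the table. Mcm6 held 3 matches, the most of any member. In Rfc3 the matches began 10 bases before and 2 bases into the transcript. CCAAT, the box bound by NF-Y, was found on either strand in 63.6% of the members' windows and in 37.7% of those of tested genes. TTTGAA, the letters of the cell cycle homology region found in many mitotic promoters, was in 3 of the 33 and in 12.5% of tested genes. With every listed start of a gene counted, the E2F-type share was 51.5% of members and 11.3% of tested genes. The 14 tested members with a match had a median log2 difference of 0.45, and the 18 without one 0.77. A match is a run of letters and not a bound site.

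Most replication genes had higher values in Rip-B7xAI4 cells, by a modest amount, and no single gene passed the test over all genes. All values are log2 as deposited, and differences are Rip-B7xAI4 minus AI4. Genes in the lowest 30% by mean over all 6 arrays (mean log2 under 5.47) were not tested, which left 38 of the 40 members, without Orc1 and Gins1, among 13950 genes. Of those 38, 34 had a positive difference and 4 a negative one (Cdt1, Pola2, Pole2 and Rfc2). A positive difference was found for 39% of all tested genes. The members' median difference was 0.67, against -0.10 over all tested genes. By limma with Benjamini-Hochberg adjustment over all tested genes, 0 members had an adjusted p under 0.05. The lowest member value was an adjusted p of 0.353 (Rfc4), and 0.00717% of all tested genes passed.

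At an unadjusted p under 0.05, 15 of the 38 (39.5%) were higher in Rip-B7xAI4, against 5.56% of all tested genes, and 0 were lower, against 3.17%. For 12 members (31.6%) the groups were fully apart, with the lowest Rip-B7xAI4 array over the highest AI4 array, against 5.99% of tested genes. Cdt1 was the 1 member with the reverse order, against 11.9%. Since Rfc4 and Brca1 passed the limit on dim genes only through their Rip-B7xAI4 values, the counts were also taken with no such limit. Then 36 of 40 differences were positive, against 34.8% of 19929 genes, 16 had an unadjusted p under 0.05 on the higher side, against 4.40%, and 1 on the lower side (Cdt1), against 3.73%. The groups were then fully apart in that direction for 13 of the 40, against 4.62%. In total RNA from sorted cells, a larger share of dividing cells and more of these RNAs per cell cannot be told apart.

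**Figure D1:**
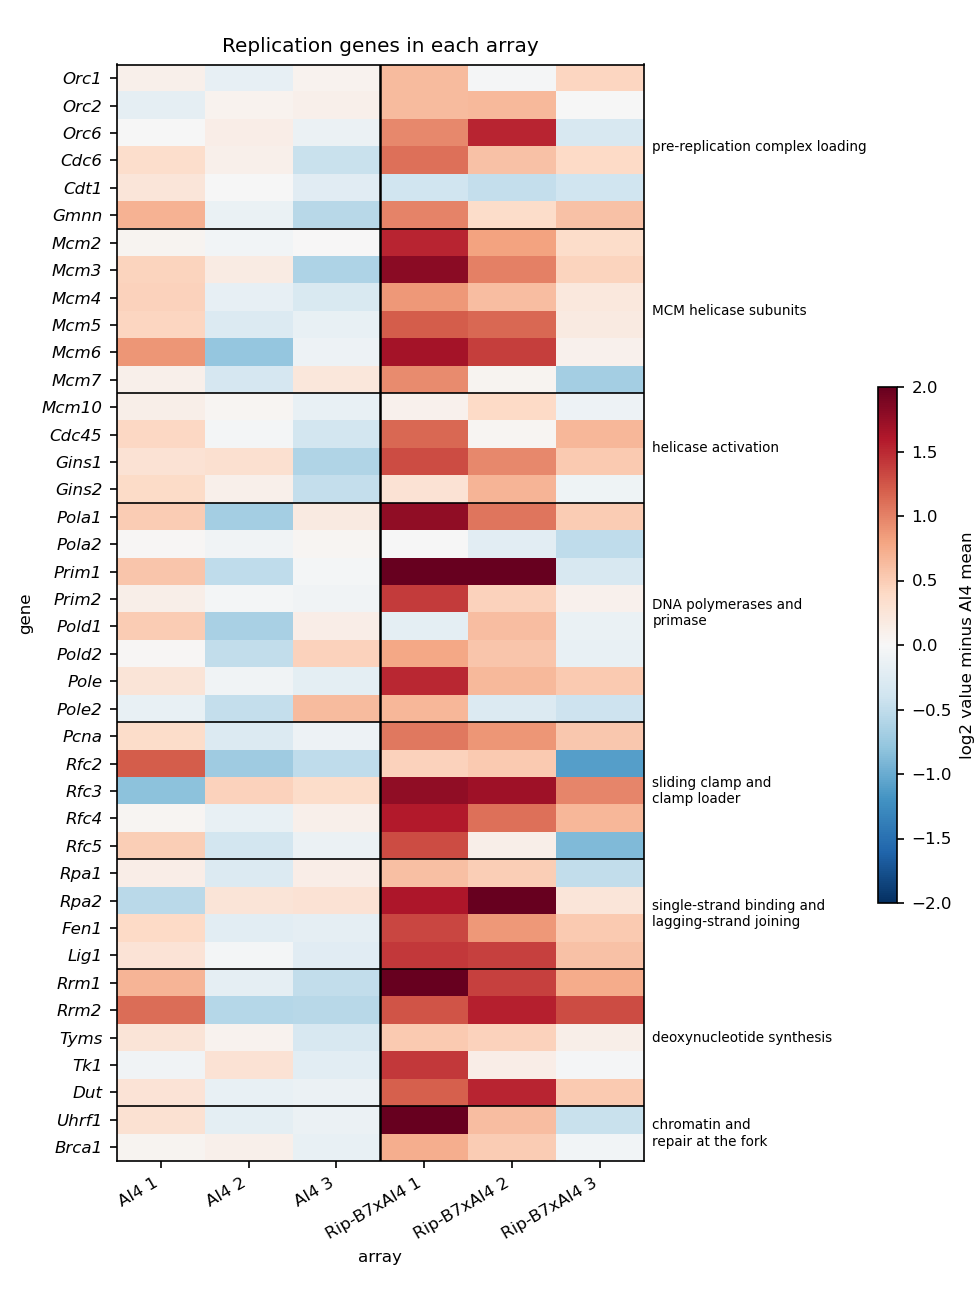
Log2 value of each of the 40 replication genes (rows, by role) in each of the 6 arrays (columns), minus that gene's mean over the AI4 arrays; colours saturate at 2 in either direction. Red dominates in Rip-B7xAI4 arrays 1 and 2 and is pale in array 3, and Cdt1 is blue in all 3.

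The 3 Rip-B7xAI4 arrays differed in how far they stood from AI4. Set against the AI4 mean, 35 of 38 tested members were higher in replicate 1, with a median of 1.18, and 35 in replicate 2, with a median of 0.63. In replicate 3, 21 were higher, with a median of 0.11. Of all tested genes, 41.5%, 39.2% and 39.0% were higher in replicates 1, 2 and 3. Their medians were -0.13, -0.09 and -0.09. Replicate 3 was the lowest of its group for 34 of the 40 members (85.0%), against 34.7% of all tested genes. AI4 replicate 1 was the highest of its group for 28 members (70.0%), against 46.2% of tested genes. The count of 15 therefore moved with the arrays used. Leaving out replicate 3 of Rip-B7xAI4 gave 24, with 6.84% of all tested genes called in the same fit. Leaving out its replicate 1 gave 9 (3.43% of all), and its replicate 2 gave 10 (5.84%). Leaving out AI4 replicate 2 gave 6 (4.01% of all) and leaving out AI4 replicate 3 also gave 6 (6.74%). The members' median was 0.41 without Rip-B7xAI4 replicate 1, and it stayed positive in every setting run. The 12 members with no overlap became 26 with Rip-B7xAI4 replicate 3 left out, against 12.3% of tested genes, and 20 with AI4 replicate 1 left out, against 9.43%. Fewer arrays separate more easily, so the share over all genes went up as well.

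Markers of other cells also differed between the arrays. The 12 myeloid markers, such as Lyz2, Csf1r and Mpeg1, all had positive differences, against 39% of all tested genes. Of the 12, 3 (Cd68, Fcer1g and Clec7a) had an unadjusted p under 0.05 in limma, against 5.56% of all tested genes called higher. The mean of the 12 was 9.30 and 8.98 in Rip-B7xAI4 replicates 1 and 3, but 6.27 in replicate 2 and 6.03 to 6.71 in AI4. The mean of the 40 replication genes was 7.67, 7.34 and 6.71 in Rip-B7xAI4 replicates 1, 2 and 3, against 6.43 to 6.85 in AI4. All 12 myeloid markers exceeded every AI4 array in replicates 1 and 3, where the share over all genes was not counted. In replicate 2, 3 of the 12 did so, against 19.4% of the genes tested without replicates 1 and 3. Without replicates 1 and 3 together, the members' median difference was 0.62 over 37 tested, and 28 of the 37 exceeded the highest AI4 array, against 19.4% of tested genes. With 1 Rip-B7xAI4 array left, that fit cannot measure the spread within the group, so its unadjusted p-values are not counted here. The mean of the 8 measured CD8 T cell markers ran from 9.74 to 10.52 (AI4) and from 9.86 to 10.54 (Rip-B7xAI4), but its genes went different ways. Cd8b1 differed by -1.001 ± 0.39 (SE; unadjusted p = 0.0387), Cd8a by -0.69 ± 0.35 and Cd3e by 0.88 ± 0.42, the last with no overlap, and the other 5 by -0.27 to 0.41. Markers of NK cells averaged 5.28 to 5.53 (AI4) and 6.10 to 6.22 (Rip-B7xAI4), though 2 of these 3 genes were below the limit on dim genes and Eomes is also made by CD8 T cells. B cell markers averaged 5.87 to 6.35 and 5.73 to 6.73, and acinar markers 5.71 to 5.84 and 5.63 to 5.85. Of the tested islet endocrine, duct, and endothelial and stromal markers, 0 of 5, 0 of 2 and 1 of 5 had a positive difference. Their medians were -0.21, -0.42 and -0.37. Krt8 (duct) differed by -0.62 ± 0.26 and Pecam1 (endothelial) by -1.05 ± 0.31, both with no overlap. Their unadjusted p in limma was 0.0470 and 0.0127, and 3.17% of all tested genes were called lower. The part of other cells in the differences was not tested.

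**Figure D2:**
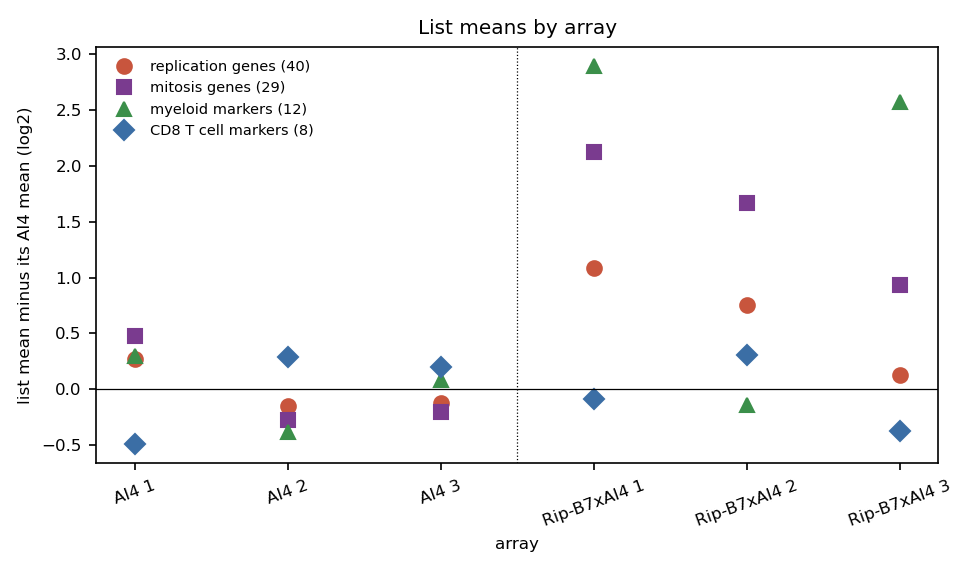
Mean log2 value of 4 gene lists in each array, minus the list's mean over the 3 AI4 arrays, with the number of genes in brackets. Replication and mitosis genes are highest in Rip-B7xAI4 array 1 and lowest of that group in array 3, while the mean of the myeloid markers is high in arrays 1 and 3 and within the AI4 range in array 2.

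Of the 5 tested factors that license origins, 4 had a positive difference and Cdt1 a negative one. Over all tested genes, 39% had a positive difference, 5.56% were higher at an unadjusted p under 0.05 in limma and 5.99% had no overlap. These shares are the background for this role group and for those that follow. Cdc6, the ATPase that helps the origin recognition complex load the helicase, stood at 6.47, 6.22 and 5.67 in AI4 and at 7.21, 6.70 and 6.51 in Rip-B7xAI4. The groups did not overlap, though the nearest arrays were close, and the difference was 0.69 ± 0.28 (SE; unadjusted p = 0.0458, adjusted p = 0.566 by limma). Cdt1, the partner of Cdc6 in loading, went the other way, at 6.99, 6.74 and 6.53 in AI4 and at 6.36, 6.28 and 6.35 in Rip-B7xAI4. The groups did not overlap, with a difference of -0.42 ± 0.18 (unadjusted p = 0.0513, adjusted p = 0.566 by limma). Cdt1 protein is destroyed once S phase starts, and geminin (Gmnn) binds and blocks what remains. Gmnn stood at 6.46, 5.64 and 5.21 in AI4 and at 6.77, 6.14 and 6.36 in Rip-B7xAI4, so that AI4 replicate 1 lay within the other group, and differed by 0.65 ± 0.35. Of the origin recognition subunits, Orc2 and Orc6 differed by 0.42 ± 0.23 and 0.72 ± 0.45, and Orc6 was high in Rip-B7xAI4 replicates 1 and 2 (7.37 and 7.93) but not in replicate 3 (6.09). Orc1, which was below the limit on dim genes, stood at 4.94, 4.67 and 4.91 in AI4 and at 5.47, 4.81 and 5.28 in Rip-B7xAI4.

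All 6 subunits of the MCM helicase had positive differences, from 0.11 to 1.09 with a median of 0.87, and 3 had an unadjusted p under 0.05. Mcm2 was even in AI4, at 6.53, 6.42 and 6.47, and stood at 8.0, 7.28 and 6.84 in Rip-B7xAI4. It was the only MCM subunit with no overlap, and differed by 0.90 ± 0.30 (SE; unadjusted p = 0.0210, adjusted p = 0.512 by limma). Mcm3 stood at 7.45, 7.17 and 6.39 in AI4 and at 8.81, 8.02 and 7.45 in Rip-B7xAI4. The highest AI4 and the lowest Rip-B7xAI4 array met, and the difference was 1.09 ± 0.42 (unadjusted p = 0.0365). Mcm5 stood at 7.24, 6.55 and 6.67 in AI4 and at 8.03, 7.97 and 7.0 in Rip-B7xAI4, a difference of 0.84 ± 0.34 (unadjusted p = 0.0433). Here too Rip-B7xAI4 replicate 3 lay below AI4 replicate 1. Mcm6 and Mcm4 differed by 1.04 ± 0.55 and 0.56 ± 0.28 and overlapped. Mcm7, a member of the same ring, differed by 0.11 ± 0.41, with a 95% interval of -0.87 to 1.09. Its Rip-B7xAI4 values, 7.28, 6.40 and 5.66, spread on both sides of AI4, and the sign turned when AI4 replicate 2 (-0.06) or Rip-B7xAI4 replicate 1 (-0.31) was left out.

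Of the factors that turn the loaded ring into a moving helicase, the 3 tested had a median difference of 0.29, and 0 had an unadjusted p under 0.05. Cdc45 stood at 7.12, 6.67 and 6.34 in AI4 and at 7.86, 6.75 and 7.37 in Rip-B7xAI4, and differed by 0.62 ± 0.34 (SE). Gins2, a subunit of the GINS complex, stood at 7.92, 7.63 and 7.06 in AI4 and at 7.83, 8.22 and 7.45 in Rip-B7xAI4. The groups overlapped and the difference was 0.29 ± 0.30. Mcm10, which helps to fire origins, stood at 6.24, 6.16 and 5.97 in AI4 and at 6.20, 6.51 and 6.01 in Rip-B7xAI4, with a difference of 0.12 ± 0.19 whose sign turned without Rip-B7xAI4 replicate 2 (-0.012). Gins1, the GINS subunit that was too dim to be tested, stood at 4.97, 5.0 and 4.08 in AI4 and at 5.99, 5.65 and 5.22 in Rip-B7xAI4, with no overlap. Its difference was 0.93 ± 0.32, larger than those of the 3 tested, with an unadjusted p of 0.0227 by limma with no limit on dim genes.

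**Figure D3:**
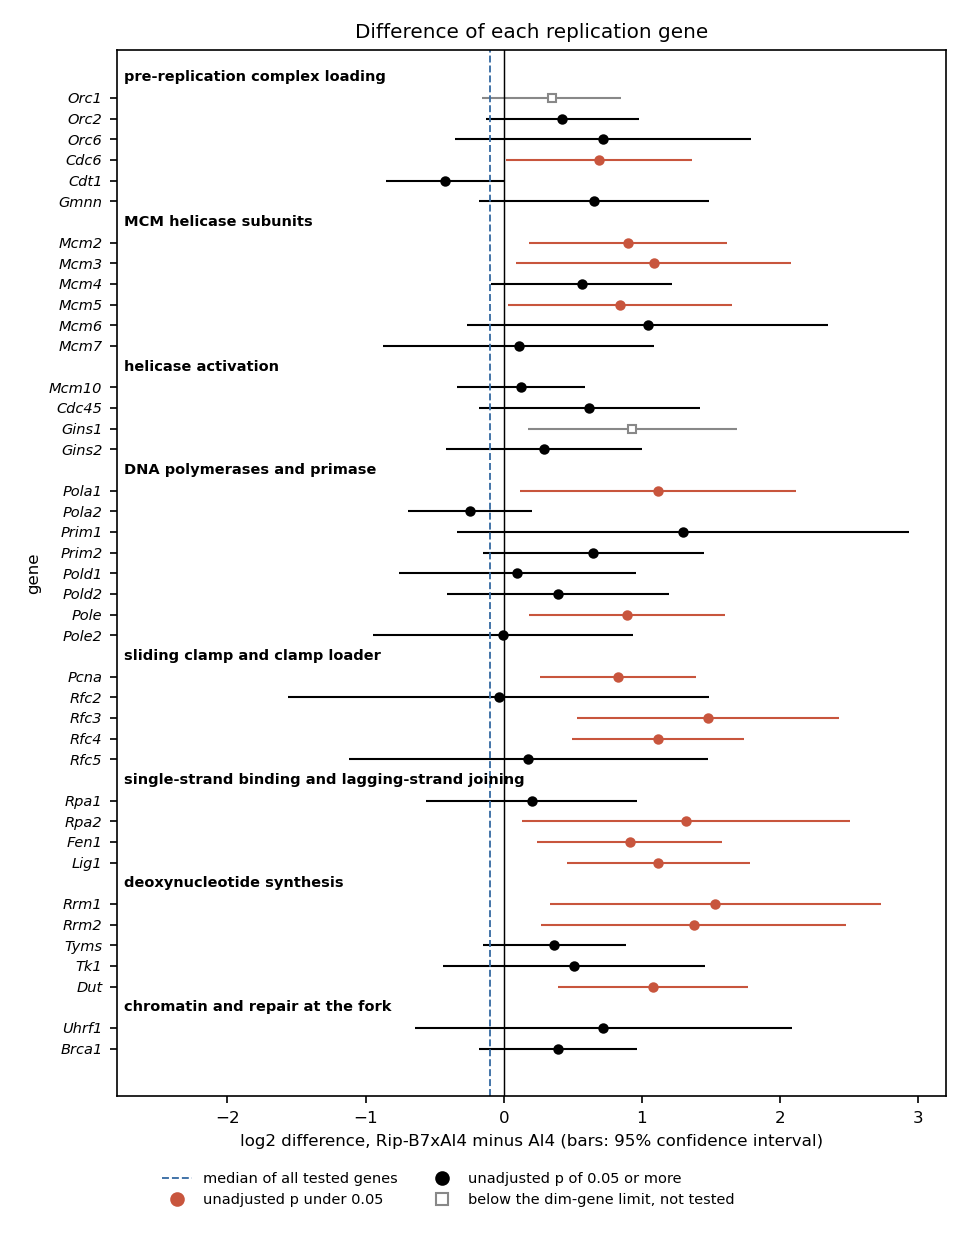
Log2 difference (Rip-B7xAI4 minus AI4) of each of the 40 replication genes by role, with 95% confidence intervals from limma; orange marks an unadjusted p under 0.05, open squares genes below the limit on dim genes, and the dashed line the median of all tested genes (-0.10). Most points lie right of 0, while Cdt1, Pola2, Pole2 and Rfc2 lie left of it.

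Of the 8 polymerase and primase genes, 6 had a positive difference, with a median of 0.52, and 2 had an unadjusted p under 0.05, both of them catalytic subunits. Pole, the catalytic subunit of the leading-strand polymerase epsilon, stood at 5.82, 5.50 and 5.36 in AI4 and at 7.06, 6.21 and 6.09 in Rip-B7xAI4. There was no overlap, and the difference was 0.89 ± 0.30 (SE; unadjusted p = 0.0207, adjusted p = 0.512 by limma). Its partner Pole2 stood at 5.76, 5.43 and 6.55 in AI4 and at 6.58, 5.64 and 5.51 in Rip-B7xAI4, a difference of -0.01 ± 0.39 with a 95% interval of -0.95 to 0.93. Pola1, the catalytic subunit of polymerase alpha, stood at 6.60, 5.42 and 6.28 in AI4 and at 7.88, 7.18 and 6.61 in Rip-B7xAI4. The highest AI4 and the lowest Rip-B7xAI4 array nearly met, and the difference was 1.12 ± 0.42 (unadjusted p = 0.0333). Pola2, its regulatory subunit, stood at 6.74, 6.64 and 6.75 in AI4 and at 6.71, 6.49 and 6.19 in Rip-B7xAI4, a difference of -0.24 ± 0.19. The primase genes make the short RNA primers. Prim1, their catalytic subunit, was far higher in Rip-B7xAI4 replicates 1 and 2 (7.80 and 7.97) than in replicate 3 (5.45), with AI4 at 6.32, 5.26 and 5.74, and differed by 1.30 ± 0.69. Prim2 stood at 6.38, 6.23 and 6.20 in AI4 and at 7.66, 6.74 and 6.36 in Rip-B7xAI4 and differed by 0.65 ± 0.34. For polymerase delta, the lagging-strand enzyme, the difference was 0.10 ± 0.36 for Pold1, its catalytic subunit, and 0.39 ± 0.34 for Pold2. Their 95% intervals were wide, at -0.76 to 0.96 and -0.41 to 1.19. Pold3, a subunit of polymerase delta outside the list, differed by 1.47 ± 0.42 and is given below.

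Whether partners differed unequally was asked within each array, by the log2 value of one gene minus that of its partner, for 7 pairs chosen after their values were seen. Pola1 minus Pola2 lay at -0.13, -1.22 and -0.46 in AI4 and at 1.17, 0.69 and 0.41 in Rip-B7xAI4. Pole minus Pole2 lay at 0.06, 0.06 and -1.19 in AI4 and at 0.48, 0.57 and 0.58 in Rip-B7xAI4. Gmnn minus Cdt1 lay at -0.53, -1.10 and -1.32 in AI4 and at 0.41, -0.14 and 0.01 in Rip-B7xAI4. In each of these 3 pairs the groups did not overlap, and the mean moved by 1.36, 0.90 and 1.08. Rpa1 minus Rpa2 moved by -1.12, also with no overlap. For these 4 pairs a two-sided exact permutation test gave p = 0.1, the smallest that 3 against 3 arrays allow, and 0.175 after adjustment over the 7 pairs. Prim1 against Prim2, Pold1 against Pold2 and Rrm1 against Rrm2 had exact p of 0.400, 0.600 and 0.900 in the same test. Because the pairs were chosen on these same values, the test cannot decide whether partners differ unequally, and no conclusion is drawn from it.

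Of the 5 genes of the PCNA clamp and its loader, 4 had a positive difference, with a median of 0.83, and 3 had an unadjusted p under 0.05. Rfc4, a small subunit of replication factor C, the complex that opens PCNA and sets it on DNA, stood at 5.11, 4.91 and 5.17 in AI4 and at 6.66, 6.17 and 5.72 in Rip-B7xAI4. The groups were clearly apart, and the difference was 1.12 ± 0.26 (SE; unadjusted p = 0.00400, adjusted p = 0.353 by limma). The AI4 mean of Rfc4 was under the limit on dim genes, so it was tested only through its Rip-B7xAI4 values. With no such limit its adjusted p was 0.399 by limma. Rfc3 stood at 4.90, 6.17 and 6.08 in AI4 and at 7.50, 7.41 and 6.69 in Rip-B7xAI4, with no overlap and a difference of 1.48 ± 0.40 (unadjusted p = 0.00814, adjusted p = 0.454 by limma). Pcna, the clamp that tethers polymerases to the template, stood at 11.32, 10.68 and 10.85 in AI4 and at 11.9996, 11.84 and 11.49 in Rip-B7xAI4. Its difference of 0.83 ± 0.24 is a ratio of 1.77-fold (unadjusted p = 0.0110, adjusted p = 0.472 by limma). A second Pcna probe gave a difference of 0.84 ± 0.23. RefSeq lists Pcna pseudogenes (Pcna-ps1 and Pcna-ps2), so signal from near-identical copies cannot be told apart there.

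The remaining loader subunits varied within both groups. Rfc2 stood at 7.93, 6.02 and 6.22 in AI4 and at 7.19, 7.25 and 5.62 in Rip-B7xAI4. The highest value of all was in AI4 replicate 1 and the lowest in Rip-B7xAI4 replicate 3, and the difference was -0.04 ± 0.64 (SE), with a 95% interval of -1.56 to 1.49. Leaving out its highest array gave 0.57 and leaving out its lowest gave 0.50. Rfc5 stood at 8.79, 7.94 and 8.19 in AI4 and at 9.61, 8.42 and 7.43 in Rip-B7xAI4, and differed by 0.18 ± 0.54, with a sign that turned without Rip-B7xAI4 replicate 1 (-0.39).

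Genes that protect and join DNA behind the fork had positive differences in all 4 cases, and 3 had an unadjusted p under 0.05. Lig1, the ligase that seals lagging-strand fragments, stood at 7.03, 6.71 and 6.52 in AI4 and at 8.16, 8.12 and 7.34 in Rip-B7xAI4. There was no overlap, and the difference was 1.12 ± 0.28 (SE; unadjusted p = 0.00543, adjusted p = 0.405 by limma). Fen1, the nuclease that trims the flaps which Lig1 then seals, stood at 5.94, 5.34 and 5.37 in AI4 and at 6.89, 6.42 and 6.07 in Rip-B7xAI4. It too showed no overlap, with a difference of 0.91 ± 0.28 (unadjusted p = 0.0148). Rpa2, a subunit of the complex that coats single-stranded DNA, stood at 6.15, 6.93 and 6.97 in AI4 and at 8.31, 8.78 and 6.92 in Rip-B7xAI4, so that replicate 3 was at the AI4 level. Its difference was 1.32 ± 0.50 (unadjusted p = 0.0343). Rpa1, the large subunit of the same complex, differed by 0.20 ± 0.32, with a mean of 7.43 ± 0.23 (SD) for AI4 and 7.63 ± 0.60 for Rip-B7xAI4.

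**Figure D4:**
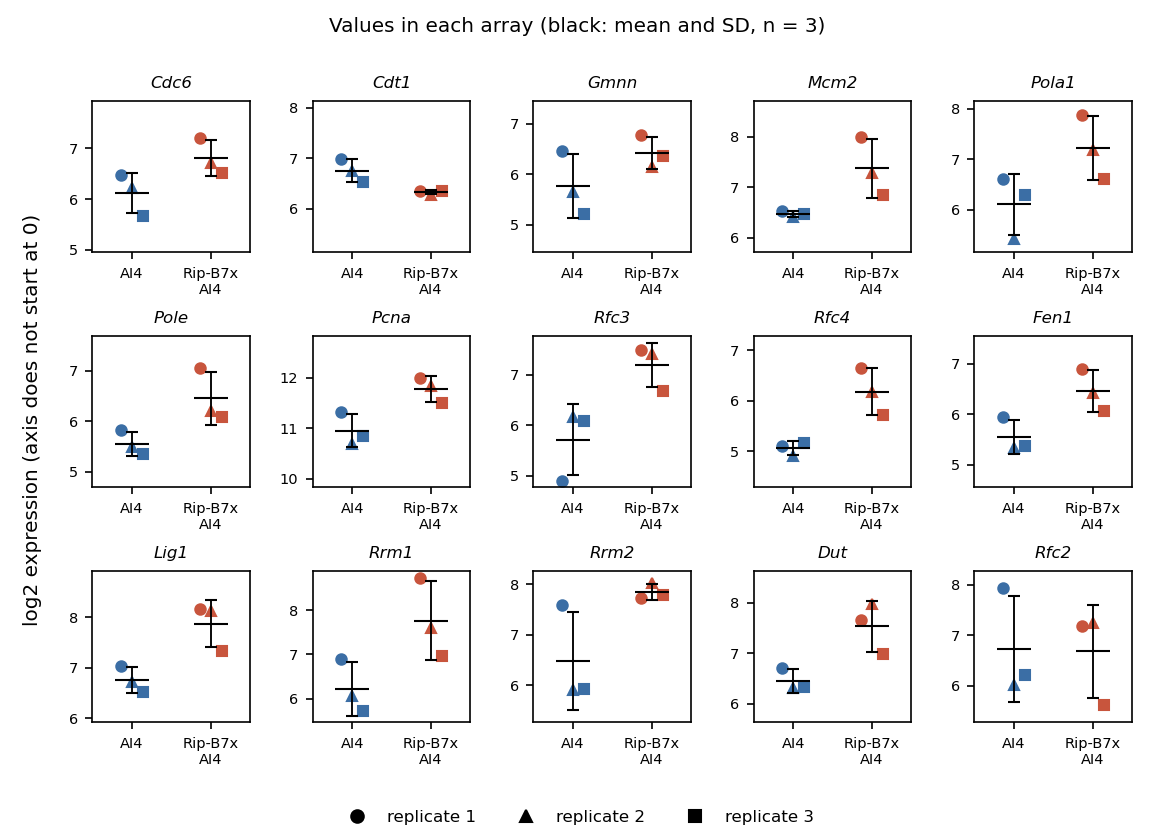
Log2 expression of 15 replication genes in each array, by group, with the replicate shown by symbol and the mean and SD (n = 3) in black; each panel has its own axis. Of the genes shown, 12 show no overlap with Rip-B7xAI4 on top, Cdt1 shows the reverse, and Gmnn and Rfc2 overlap. These 12 are all the tested members with no overlap in that direction, so the panels do not represent the whole list. They make up 31.6% of the 38 tested members, against 5.99% of all tested genes.

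Deoxynucleotide synthesis genes all had positive differences, with a median of 1.08. Rrm1, the large subunit of ribonucleotide reductase, which makes deoxynucleotides from ribonucleotides, stood at 6.91, 6.06 and 5.73 in AI4 and at 8.73, 7.59 and 6.97 in Rip-B7xAI4. Its difference of 1.53 ± 0.50 (SE) was the largest of the tested members, a ratio of 2.89-fold (unadjusted p = 0.0196, adjusted p = 0.509 by limma). Rrm2, the subunit whose supply limits the enzyme in S phase, stood at 7.60, 5.91 and 5.93 in AI4 and at 7.74, 8.03 and 7.79 in Rip-B7xAI4. The Rip-B7xAI4 arrays were even and just above AI4 replicate 1, the other AI4 arrays lay far below, and the difference was 1.37 ± 0.46 (unadjusted p = 0.0217). Rrm2 was 1 of the 6 members for which Rip-B7xAI4 replicate 3 was not the lowest of its group. Dut, which removes dUTP before it can be built into DNA, stood at 6.72, 6.30 and 6.33 in AI4 and at 7.65, 7.97 and 6.97 in Rip-B7xAI4, with no overlap and a difference of 1.08 ± 0.29 (unadjusted p = 0.00776). Tyms, the thymidylate synthase, differed by 0.37 ± 0.22 and overlapped. Tk1, the salvage kinase for thymidine, differed by 0.51 ± 0.40 on the probe used, which was high in Rip-B7xAI4 replicate 1 alone (8.65, against 7.02 to 7.52 in the other arrays). Its other probe gave 0.07 ± 0.28 and 6.62 in that array, so the value for Tk1 is uncertain.

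Both genes that couple replication to chromatin and repair overlapped between groups. Uhrf1, which keeps DNA methylation on newly made strands, stood at 7.11, 6.61 and 6.69 in AI4 and at 8.79, 7.42 and 6.36 in Rip-B7xAI4. It ran from the highest to the lowest value within 1 group, and differed by 0.72 ± 0.57 (SE). Brca1, a repair gene that protects stalled forks, stood at 5.49, 5.53 and 5.29 in AI4 and at 6.17, 5.94 and 5.38 in Rip-B7xAI4, a difference of 0.39 ± 0.24.

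Genes of the same pathway outside the list leaned the same way to a smaller extent, and 0 passed the adjusted limit in limma. Of 25 other replication factors tested, 20 had a positive difference, with a median of 0.35, and 5 had an unadjusted p under 0.05 on the higher side and 0 on the lower. The shares of all tested genes given above, 39% positive, 5.56% called higher, 3.17% called lower and 5.99% without overlap, are the background here and for the lists that follow. Ticrr, which brings Cdc45 to origins, stood at 5.29, 5.07 and 5.30 in AI4 and at 6.27, 6.92 and 6.82 in Rip-B7xAI4, and differed by 1.45 ± 0.22 (SE; adjusted p = 0.158 by limma). Its AI4 mean was under the limit on dim genes, so it was tested only through its Rip-B7xAI4 values. With no such limit, 22 of 28 factors were positive and 5 were called higher. Pold3, an accessory subunit of polymerase delta, differed by 1.47 ± 0.42, and Rnaseh2b, of the enzyme that removes RNA from DNA, by 0.77 ± 0.28. Of 27 other nucleotide synthesis enzymes, most of them in de novo purine, pyrimidine and one-carbon steps, 17 had a positive and 10 a negative difference. Their median was 0.11, and 4 had an unadjusted p under 0.05, all on the higher side. Ppat, which starts purine synthesis, stood at 7.09, 8.04 and 8.28 in AI4 and at 9.27, 9.58 and 9.01 in Rip-B7xAI4, with no overlap, and differed by 1.49 ± 0.34. Dtymk, which makes dTDP, differed by 1.14 ± 0.29, and Gmps, which makes GMP, by 1.502 ± 0.53.

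Of 21 genes for chromatin assembly and repair with S phase, 19 had a positive difference, with a median of 0.42, and 4 had an unadjusted p under 0.05. Hells, a chromatin remodeller, stood at 5.55, 4.97 and 6.12 in AI4 and at 8.31, 8.22 and 7.07 in Rip-B7xAI4, and differed by 2.31 ± 0.43 (SE). Asf1b, a histone chaperone, differed by 1.11 ± 0.22, and Chek1, the kinase of the replication checkpoint, by 1.38 ± 0.28. Chek1 and 3 others of the 21 had an AI4 mean under the limit on dim genes. With no limit, 20 of 22 were positive and 4 were called higher. Among 19 E2F factors and regulators of S phase entry, 15 had a positive difference and the median was 0.42. At an unadjusted p under 0.05, 3 were higher, E2f8 by 1.24 ± 0.43 the inhibitor Cdkn2c by 1.11 ± 0.28 and the E2F repressor Rb1 by 1.12 ± 0.41, and 1 was lower (Ccne1, the cyclin E that starts S phase, by -0.50 ± 0.21). Cdkn2c was tested only through its Rip-B7xAI4 values, and with no limit on dim genes 3 of the 19 were called higher and 2 lower. Mitosis genes had a larger median than the replication genes, 1.69 over 28 tested, with 28 positive, 19 at an unadjusted p under 0.05 and 18 with no overlap. Averaged over the list, AI4 arrays stood at 6.44, 5.69 and 5.75 and Rip-B7xAI4 arrays at 8.08, 7.63 and 6.89, so replicate 3 was again the lowest of its group but stayed above AI4. Kif11, a spindle motor, differed by 3.17 ± 0.53, Birc5, of the chromosomal passenger complex, by 2.32 ± 0.40, and Prc1, which bundles the central spindle, by 2.23 ± 0.27. Prc1 was 1 of 8 mitosis genes with an AI4 mean under the limit on dim genes. With no limit, 29 of 29 were positive, 20 were called higher, 18 had no overlap and the median was 1.61. Whether the lists differ from each other was not tested.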

How the data were processed

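RNA from sorted T cells was measured on 6 single-colour arrays, 3 per group, with groups taken from the titles. The authors deposited 1 normalized value per probe, made with Affymetrix Expression Console per the submitters' processing notes; the sources used here do not give its version or algorithm. The log2 scale of the deposited values was inferred from how far they range. Array medians lay between 5.94 and 6.10, and no further normalization was applied. No measure of background was used, so low values may understate differences, and the 3 arrays per group limit the precision. Of 28325 probes, 21760 had 1 gene symbol in the platform annotation, 1621 several and 4944 none. By gene ID, 21669 matched RefSeq GRCm38.p6, and 0 symbols changed. The fit used limma 3.58.1 (lmFit, eBayes; R 4.3.3) with group as the only term, two-sided, and was tested on simulated data.

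Members, gene lists, tests and alternatives were chosen with earlier results of these data known; no list is tested as a set. Up to 3 genes per role or other list were named by smallest p, as well as every member with a negative difference. Orc1, Orc6, Mcm7, Prim1, Gins1, Rfc5 and Tk1 were given array values after these were seen, and 3 promoters were added after matches were counted. No other-list p was adjusted on its own. Alternatives were the replicate block, leaving out arrays, 2 normalizations, 2 limits on dim genes, the mean of probes, eBayes with trend and robust, and array weights. The Rip-B7xAI4 replicates 1 and 3 were left out together because of their myeloid markers.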

Additional observations from a re-analysis of the deposited data

How the results depend on the processing

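No member passed an adjusted p of 0.05 in limma under any setting run; the lowest member adjusted p lay between 0.0996 (array weights) and 0.853 (without Rip-B7xAI4 replicate 1). Over all genes 1 passed. The count was 0 with the replicate block, 38 with array weights and 0 to 23 over the fits that leave out 1 array. The members' median difference lay between 0.41 and 0.89 over those fits. Members higher at an unadjusted p under 0.05 (15) numbered 6 to 24 over the same fits, with 3.43% to 6.84% of all tested genes called higher. Members lower (0) numbered 0 to 1 over the same fits and 1 each with no filter, trend and robust, or array weights. Members with no overlap (12) numbered 11 to 26 over the same fits (8.0% to 12.3% of all tested genes), 28 without Rip-B7xAI4 replicates 1 and 3 (19.4%) and 8 after quantile normalization (5.19%). With the replicate block, 17 members were higher at an unadjusted p under 0.05 in limma, against 5.53% of all tested genes. The count over all genes went from 1 to 0 there, and no member count moved by over 1.5 times. The same-numbered arrays' deviations from their group means correlated at -0.08, 0.06 and -0.22. The labels state no block, and whether same-numbered arrays were handled together was not tested.

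Of the 38 tested members, 32 kept their sign in every setting in which they were tested. The other 6 were near 0. The share of all tested genes that kept their sign was not counted. Over the fits without 1 array, Mcm7 ran from -0.31 to 0.50, Mcm10 from -0.012 to 0.24, Pold1 from -0.22 to 0.35, Pole2 from -0.34 to 0.31, Rfc2 from -0.39 to 0.57 and Rfc5 from -0.39 to 0.71. After quantile normalization Pold1 was -0.041, Rfc5 -0.0175 and Pole2 0.048. Pole2 was 0.060 and Rfc2 0.0315 after median centring, and 0.062 and 0.64 with array weights. Rfc2 was 0.53 without Rip-B7xAI4 replicates 1 and 3. The causes were not tested. No member value has a depth behind it, and Orc1 and Gins1 were too dim to test.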
